A study of Mus musculus and Rattus norvegicus with 80 samples.

Results

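Reads over single genomic L1 loci were compared between the testes and the livers of 3 male F344 rats (animals 967, 968 and 974, all 4.8 mo). F344 is an inbred laboratory strain. Both organs came from each rat, so the comparison rests on 6 of the 12 rat libraries and of the 80 libraries of the series, with 3 testes and 3 livers. The sample labels give the testis as "repro", the reproductive organ of a male animal. No rat had been treated or genetically altered, and each library was made from a dissected piece of the whole organ. All annotated rat L1 loci entered the comparison, and the labels alone chose the libraries. The files hold L1 loci and no genes, so the organ labels were not checked against marker genes. In a piece of organ, fewer cells of a type and less RNA per cell cannot be told apart.

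LINE-1 (L1) is a retrotransposon that copies itself through an RNA intermediate. A full-length L1 carries an internal promoter and codes for an RNA-binding protein (ORF1p) and for a protein with endonuclease and reverse transcriptase activities (ORF2p). Most copies in a genome are truncated or mutated, and the sequences of related copies are so alike that only some reads can be assigned to a single locus. In the testis, L1 copies that move in germ cells can pass to the offspring, and these cells hold them down through DNA methylation and piRNAs. A stretch of L1 sequence can also reach the cytoplasm inside the transcript of another gene, without use of its own promoter. Read counts over a locus, as used here, do not separate these sources.

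The annotation held 4563 counting windows for L1 on rn6, the rat genome build of the files, with 2286 on the plus strand and 2277 on the minus strand. Each window was treated as a locus and told apart by its name and position, because 668 of the 3859 names stood for several places. The window was 6000 bp long for 4058 loci and shorter for 505, down to 18 bp. On the same strand, 179 windows overlapped another one. The value of a locus was the number of uniquely aligned reads in its own orientation, and both mates of a pair count. It was divided by the reads (in M) that a library had mapped, which gives reads per M mapped reads (RPM). The mapped reads were 16.9, 19.2 and 20.1 M for the testes of rats 967, 968 and 974 and 24.8, 17.99 and 25.4 M for the livers. These totals were recovered from the study's FPKM table, and the value of liver 967 is identical to that of lung 974, so RPM in that liver is less certain. A count of 3 reads per library was taken as the floor. It corresponds to 0.149-0.178 RPM in testes and 0.118-0.167 RPM in livers, and it covers counting error alone.

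Replicates of an organ differed in part by no more than counting noise. With reads halved to stand for pairs, a chi-square test over loci gave p = 0.355 for testes 967 and 968, p = 0.0395 for 967 and 974 and p = 0.0479 for 968 and 974. The loci with a read were nonetheless different in testes 967 and 968, with 115 shared of 400 and 451, about as in the other pairs of testes (129 and 132 shared), so they were counted as separate samples. The same chi-square test gave p = 0.0874 for livers 967 and 968, p = 8.24e-17 for 967 and 974 and p = 9.09e-07 for 968 and 974. Liver 974 had more loci with reads than the other livers, so values without it are given where it moves a result.

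The total number of L1 reads was lower in testes than in livers, and a single locus carried most of it in both organs. The 3 testes held 7110, 7259 and 8140 L1 reads, and the 3 livers held 18131, 15059 and 20441. In RPM, the totals were 422, 378 and 405 in testes and 730, 837 and 804 in livers, with no overlap. Their means were 402 ± 22.4 RPM (SD, n = 3) and 790 ± 54.8 RPM (SD, n = 3), which is 1.97-fold more in livers. The exact permutation test gave p = 0.1, two-sided, which is the smallest p that 3 against 3 allows. The sign-flip test within rats, also exact, gave p = 0.25, again the smallest possible. Over the 3 single values tested in this way (this total, the number of loci with more than 10 reads and the FPKM of listed loci), the permutation p remained at 0.1 after Benjamini-Hochberg adjustment.

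RAT_FL_L53, on the plus strand of chromosome 1 (chr1:20114770-20120769), took 70.2%, 70.7% and 66.6% of all L1 reads of the testes and 96.6%, 95.5% and 92.4% of those of the livers. It had 4992, 5130 and 5424 reads in testes and 17508, 14376 and 18888 in livers. The 10 loci with most reads of a library, RAT_FL_L53 included, held 84.9%, 84.3% and 81.7% of the L1 reads in testes and 98.5%, 97.8% and 96.0% in livers. Its own mean was 278 ± 16.2 RPM in testes and 749 ± 47.4 RPM in livers (SD, n = 3 each), so that livers stood 2.70-fold above testes. By edgeR's quasi-likelihood test, the testis-minus-liver log2 fold change was -1.43 ± 0.07 (SE), with an adjusted p of 4.70e-31. With the default size factors of DESeq2, which do not use mapped reads, it was -0.64 and its adjusted p 0.179. The same locus led in the other organs of these rats, with 490 ± 60.4 RPM in brains and 1305 ± 52.2 RPM in lungs. Reads lay on a mean of 13.2% of its window in testes and 12.6% in livers, which is 792 and 754 bp of the 6000 bp.

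When RAT_FL_L53 was left out, the order of the organs turned around. The other loci together gave 126, 111 and 135 RPM in testes and 25.1, 38.0 and 61.0 RPM in livers, again with no overlap. Their means were 124 ± 12.3 RPM and 41.4 ± 18.2 RPM (SD, n = 3 each), 2.99-fold more in testes (exact permutation p = 0.1, two-sided). This exclusion was chosen after the data had been seen. Without the 3 loci with most reads, testes held 2.17 times the RPM of livers, and without the 10 loci with most reads, 3.01 times. Liver 974 lay apart from the other livers here, and without rat 974 the log2 difference with RAT_FL_L53 left out was 1.93 in place of 1.67. The reads of loci covered over at least 50% of their window were few in both organs, at 3.74, 2.70 and 9.55 RPM in testes and 3.54, 5.17 and 12.9 RPM in livers. These values overlapped (exact permutation p = 0.6). They come from 1, 1 and 3 loci in testes and 1, 1 and 2 in livers, taken by the coverage in each library.

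**Figure D1:**
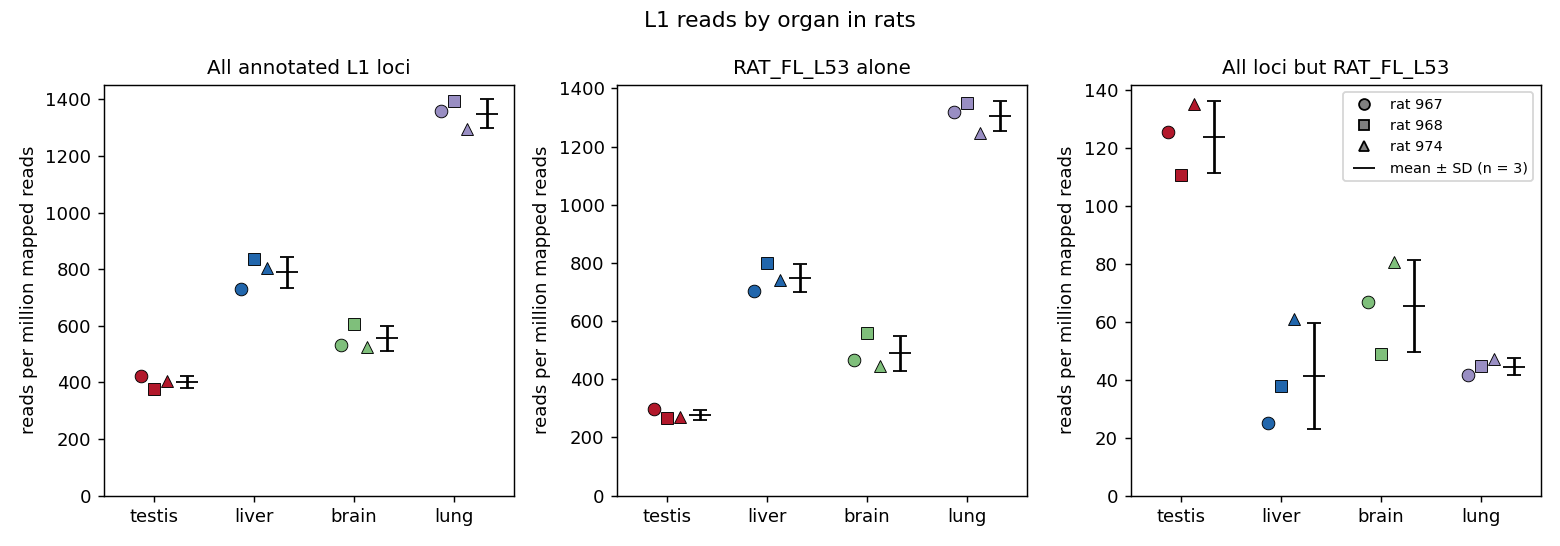
L1 reads in RPM in the 12 rat libraries (points, by rat) with mean ± SD of 3 libraries, for all annotated loci, for RAT_FL_L53 alone and for all other loci. Testes are lowest in the first 2 panels, at 402 and 278 RPM on average, and highest in the third, at 124 RPM against 41.4 RPM in livers.

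Reads were spread over more loci in testes than in livers. At least 1 read was found on 400, 451 and 537 loci of the testes and on 116, 145 and 291 loci of the livers. Most of them had 1 or 2 reads, namely 315, 370 and 418 loci in testes and 89, 114 and 213 in livers. More than 10 reads, the limit above which the study inspected a locus in the genome browser, were found on 18, 17 and 20 loci in testes and on 7, 8 and 16 in livers. Every testis had more such loci than any liver, but liver 974 came within 1 locus of testis 968. The means were 18.3 ± 1.53 and 10.3 ± 4.93 (SD, n = 3 each), with a difference of 8 loci (exact permutation p = 0.1, and p = 0.25 by the exact sign-flip test within rats). Without single rats, the difference was 6.5 (967), 7.5 (968) and 10 (974) loci. Thinned to the mapped reads of the smallest library, testes had 17.3 ± 1.27 such loci and livers 8.16 ± 1.37. More than 50 reads were found on 5 loci in each testis and on 4, 5 and 6 in livers, so that no difference in means was seen at that level.

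**Figure D2:**
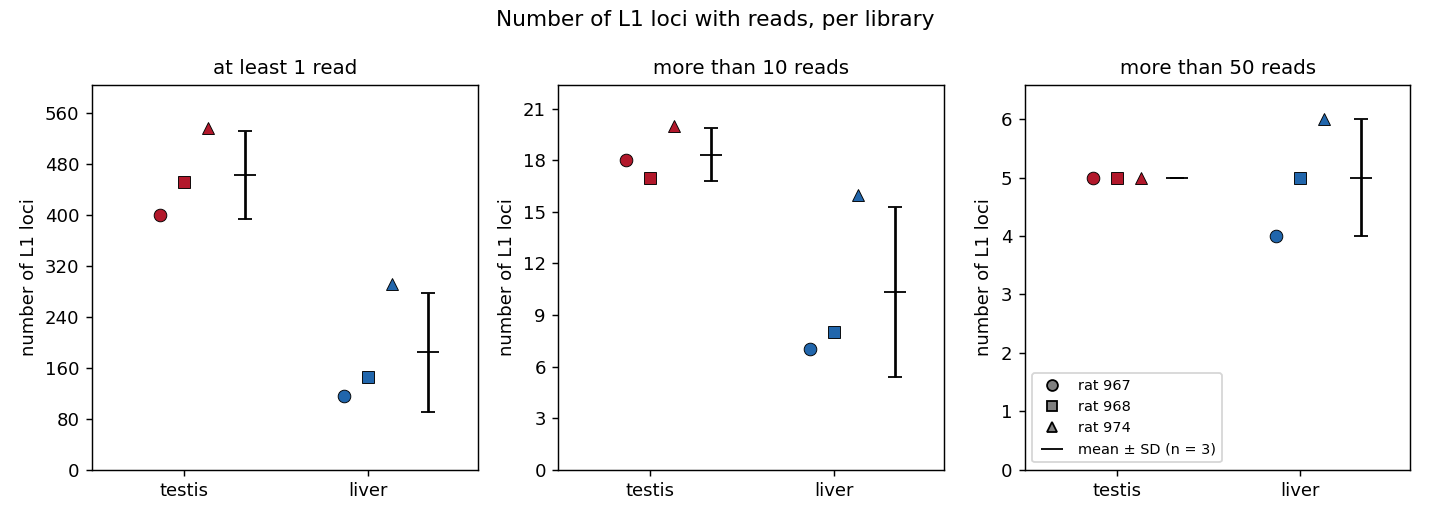
Number of L1 loci with at least 1, more than 10 and more than 50 reads in each testis and liver library (points, by rat), with mean ± SD of 3 libraries. Testes lie above livers in the first 2 panels (18.3 against 10.3 loci with more than 10 reads) and at the same mean of 5 loci in the last.

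The loci with reads differed between the organs for the most part, and also between rats. Of 1359 loci with a read in any of the 6 libraries, 1079 had a read in at least 1 testis, 431 in at least 1 liver and 151 in both organs. The shared loci are 14.0% of the testis loci and 35.0% of the liver loci. Sharing was partial within an organ too. Livers 967 and 968 shared 39 of their 116 and 145 loci, and testes 967 and 968 shared 115 of 400 and 451. Most of these loci had few reads, and how far depth limits the sharing was not tested. A read in all 3 testes was found on 67 loci, or 6.21% of the testis loci, and in all 3 livers on 33, or 7.66% of the liver loci. Among the former 67, 50 had no read in any liver, and among the latter 33, 16 had none in any testis. Over all loci with a read, 928 of the 1079 testis loci had none in livers, and 280 of the 431 liver loci had none in testes. With more than 10 reads in every library of the organ, there were 13 loci in testes and 6 in livers. Only RAT_FL_L53, RAT_FL_L3422 and RAT_FL_L5280 had more than 10 reads in all 6. At this depth, the absence of a read allows up to 3 reads per library.

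The per-locus test was limited to loci that reached 10 reads in at least 3 of the 6 libraries. Of the 4563 loci, 18 did so, and all 18 differed between testes and livers at an adjusted p under 0.05 (quasi-likelihood test of edgeR, Benjamini-Hochberg adjusted, 100% called). Higher in testis were 11 loci (61.1%) and higher in liver were 7 (38.9%). In each of the 18, the RPM of the 3 testes did not overlap that of the 3 livers. This is not independent of the filter, since 10 loci passed through the testes alone and 4 through the livers alone, leaving 4 with 10 or more reads in a library of both organs. With the default size factors of DESeq2, 15 loci were called, 11 higher in testis (73.3%) and 4 higher in liver. Without liver 974, and with the filter not applied again, all 18 loci remained called. Without the filter, 41 of the 1359 loci with a read were called (3.02%), 30 of them higher in testis (2.21%) and 11 higher in liver (0.809%). With the rat as a block, a fit of the differences within rats, the number without the filter fell to 11, with 8 higher in testis and 3 higher in liver. All 11 are among the 18, and the 24 loci called without the filter alone had adjusted p from 0.361 to 0.947 with the block. Over all 1359, the testes lay above the livers without overlap at 61 loci (4.49%) and the livers above the testes at 22 (1.62%).

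**Figure D3:**
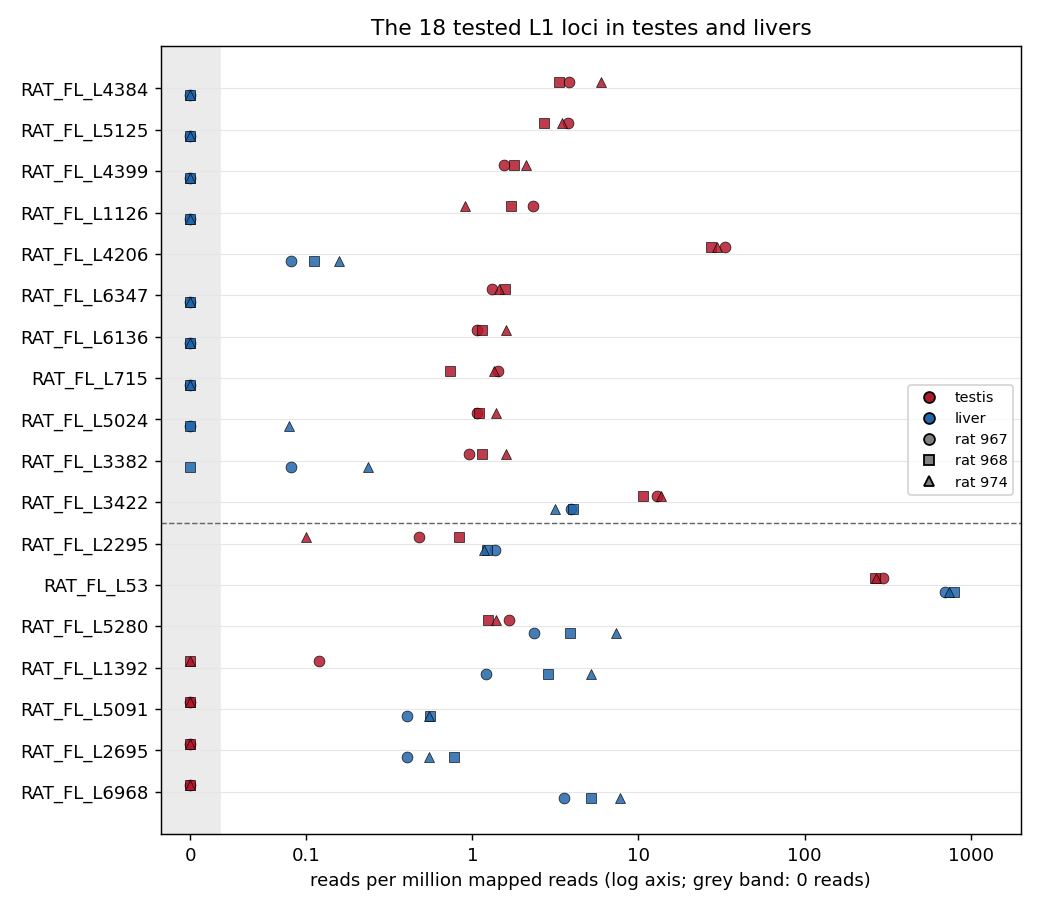
Reads per M mapped reads (log axis, with 0 reads in the grey band) of the 18 tested L1 loci in each testis and liver library, ordered by fold change. The 11 loci above the dashed line were higher in testis and the 7 below it higher in liver, and the points of the organs do not overlap at any of the 18.

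Among the loci higher in testis, RAT_FL_L4206 had by far the most reads. It lies on the plus strand at chr8:1927461-1933460. Its reads numbered 556, 528 and 600 in testes and 2, 2 and 4 in livers. These correspond to 30.1 ± 2.77 RPM in testes and 0.116 ± 0.039 RPM in livers (SD, n = 3 each). The liver mean lies under the floor of 3 reads per library, and the testis mean was 223-fold that floor. As the livers had reads, this is not a lower bound of the ratio. The fitted log2 fold change was 7.94 ± 0.45 (SE, adjusted p = 6.83e-27, edgeR). The reads covered 10.7-10.8% of the window in every testis. In brains and lungs the locus had at most 8 reads in a library.

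RAT_FL_L4384 and RAT_FL_L5125 were covered over more than 50% of the window on average in testes and had no read in any liver. RAT_FL_L4384 (chr8:60622337-60628336, plus strand) had 64, 64 and 120 reads in testes, or 4.37 ± 1.41 RPM (SD, n = 3), at least 32.3-fold above livers when the floor of 3 reads per library is used for them. Its window was covered over 49.7%, 42.7% and 70.7% in the 3 testes. The locus also had 25, 10 and 16 reads in brains and 10, 4 and 18 in lungs, so it was not confined to testes. RAT_FL_L5125 (chr11:20975239-20981238, plus strand) had 63, 52 and 70 reads in testes, or 3.31 ± 0.54 RPM (SD, n = 3), at least 24.5-fold above livers. No read fell on it in any brain or lung either, and 52.6-54.3% of the window was covered in testes. The adjusted p was 1.93e-16 for the former and 3.27e-15 for the latter (edgeR).

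RAT_FL_L4399, RAT_FL_L6347, RAT_FL_L6136 and RAT_FL_L715 had 14 to 42 reads in every testis and none in livers. RAT_FL_L4399 (chr8:74274119-74280118, plus strand) had 26, 34 and 42 reads in testes, at least 13.3-fold above livers. RAT_FL_L6347 (chr15:74094412-74100411, plus strand) had 22, 30 and 29 reads, at least 10.6-fold above livers, and none in brains or lungs. For RAT_FL_L6136 (chr15:292674-298673, plus strand), the reads in testes were 18, 22 and 32, at least 9.39-fold above livers. RAT_FL_L715 (chr15:50312987-50318986, minus strand) had 24, 14 and 27 reads in testes, at least 8.62-fold above livers, beside 13, 4 and 20 reads in lungs. Mean coverage of these 4 windows in testes ranged from 21.5% for RAT_FL_L6136 to 30.9% for RAT_FL_L4399. RAT_FL_L1126 (chr2:70404428-70410427, plus strand) had 39, 33 and 18 reads in testes and none in the 9 libraries of the other organs, at least 12.2-fold above livers, and was covered over 11.3%.

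The remaining 3 loci higher in testis had reads in livers too. RAT_FL_L5024 (chr8:86747577-86753576, minus strand) had 18, 21 and 28 reads in testes and 0, 0 and 2 in livers. The testis mean was 8.77-fold the floor, under which the liver mean lies. The ratio of the reads themselves was 40.7. Counted as pairs, 34 against 1, the exact 95% counting interval of the ratio is 6.93 to 1680, without the spread between rats. The reads in livers are of liver 974 alone, and without it the fitted log2 fold change went from 5.09 to 7.56 with no liver read left. RAT_FL_L3382 (chr2:122174428-122180427, minus strand) had 16, 22 and 32 reads in testes and 2, 0 and 6 in livers, a liver mean under the floor, with a log2 fold change of 3.36 ± 0.57 (SE, adjusted p = 1.13e-07). Without liver 974, its log2 fold change was 4.56. It was covered over only 4.08% of the window in testes. RAT_FL_L3422 lies in a window of 1504 bp (chr6:6180602-6182105, plus strand) and was read in every organ, with 218, 205 and 274 reads in testes and 97, 73 and 80 in livers. That is 12.4 ± 1.55 RPM against 3.70 ± 0.49 RPM (SD, n = 3 each), with a log2 fold change of 1.75 ± 0.35 (SE, adjusted p = 4.46e-06). With TMM factors, which scale the libraries by their L1 reads, its adjusted p was 0.217 and that of RAT_FL_L3382 was 0.13.

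Among the named loci, RAT_FL_L53 led in both organs per kb of window, with 46.3 RPM per kb in testes and 125 in livers. RAT_FL_L3422 came second in both, with a level of 8.25 RPM per kb in testes and 2.46 in livers. In testes RAT_FL_L4206 followed with 5.02 RPM per kb, and in livers RAT_FL_L6968 with 0.914. RAT_FL_L4384 stood at 0.728 RPM per kb in testes and RAT_FL_L5125 at 0.551.

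Among the loci higher in liver, RAT_FL_L6968 was the most fully covered of all tested loci. It lies on the minus strand at chr1:258822125-258828124. It had 88, 93 and 197 reads in livers and none in testes, which is 5.48 ± 2.12 RPM in livers (SD, n = 3), at least 34.0-fold above testes (adjusted p = 9.47e-17, edgeR). Without liver 974, livers were at least 27.0-fold above testes. Its coverage in livers was 55.0%, 67.8% and 86.0% of the window. Brains had no read and lungs 2 reads in a single library.

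RAT_FL_L1392 (chr2:126333030-126339029, plus strand) had 30, 51 and 132 reads in livers and 2, 0 and 0 in testes. Its level was 3.08 ± 2.00 RPM in livers (SD, n = 3). The testis mean lies under the floor, and the liver mean was 19.1-fold that floor, or 12.5-fold without liver 974. The ratio of the reads themselves, with 2 reads in testes, was 87.6. Counted as pairs, 107 against 1, the exact 95% counting interval of the ratio is 15.5 to 3509. This interval leaves out the spread between rats. Coverage was 18.9%, 30.6% and 82.4% of the window, highest in liver 974. No brain or lung library had a read on it. The fitted log2 fold change, which rests on 2 reads in testis 967, went from -6.20 to -5.56 without liver 974 and to -9.05 without testis 967.

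RAT_FL_L5280 (chr2:105001590-105007589, minus strand) was read in all 12 libraries on a short piece of its window, 2.21% of it in livers. The reads numbered 28, 24 and 28 in testes and 58, 70 and 186 in livers, or 1.43 ± 0.21 RPM against 4.51 ± 2.55 RPM (SD, n = 3 each). Its log2 fold change was -1.66 ± 0.41 (SE, adjusted p = 1.35e-04), and the call was lost with the total of L1 reads as library size (-0.67, adjusted p = 0.10). Without liver 974, the log2 fold change was -1.10. Brains stood at 4.05 ± 0.57 RPM and lungs at 2.60 ± 0.415 RPM.

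The 2 tested loci on the sex chromosomes were both higher in liver and had no read in testes. RAT_FL_L2695 on chromosome X (chrX:33061598-33067597, minus strand) had 10, 14 and 14 reads in livers, at least 3.58-fold above testes (adjusted p = 2.47e-08, and 0.0463 with the rat as a block, by edgeR). RAT_FL_L5091 on chromosome Y (chrY:574227-580226, minus strand) had 10, 10 and 14 reads in livers, at least 3.12-fold above testes (adjusted p = 5.82e-08). With the rat as a block, its adjusted p was 0.0614. Lungs had more reads on RAT_FL_L5091 than livers, namely 39, 50 and 82. Over the 397 loci of chromosome X as a whole, the level was 4.27, 4.16 and 4.53 RPM in testes and 0.886, 2.28 and 2.44 RPM in livers. Over the 42 loci of chromosome Y it was 0.475, 0.208 and 0.647 RPM in testes and 0.483, 0.889 and 1.02 RPM in livers, which overlap.

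RAT_FL_L2295 (chr4:6018959-6024958, plus strand) was the least certain of the 18. It had 8, 16 and 2 reads in testes and 34, 22 and 30 in livers, with a log2 fold change of -1.42 ± 0.48 (SE, adjusted p = 0.00407). With the rat as a block the adjusted p was 0.129, and without testis 974 it was 0.0715. Without testis 968 its log2 fold change was -2.16. The reads of the locus were highest in lungs, with 50, 52 and 48.

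**Figure D4:**
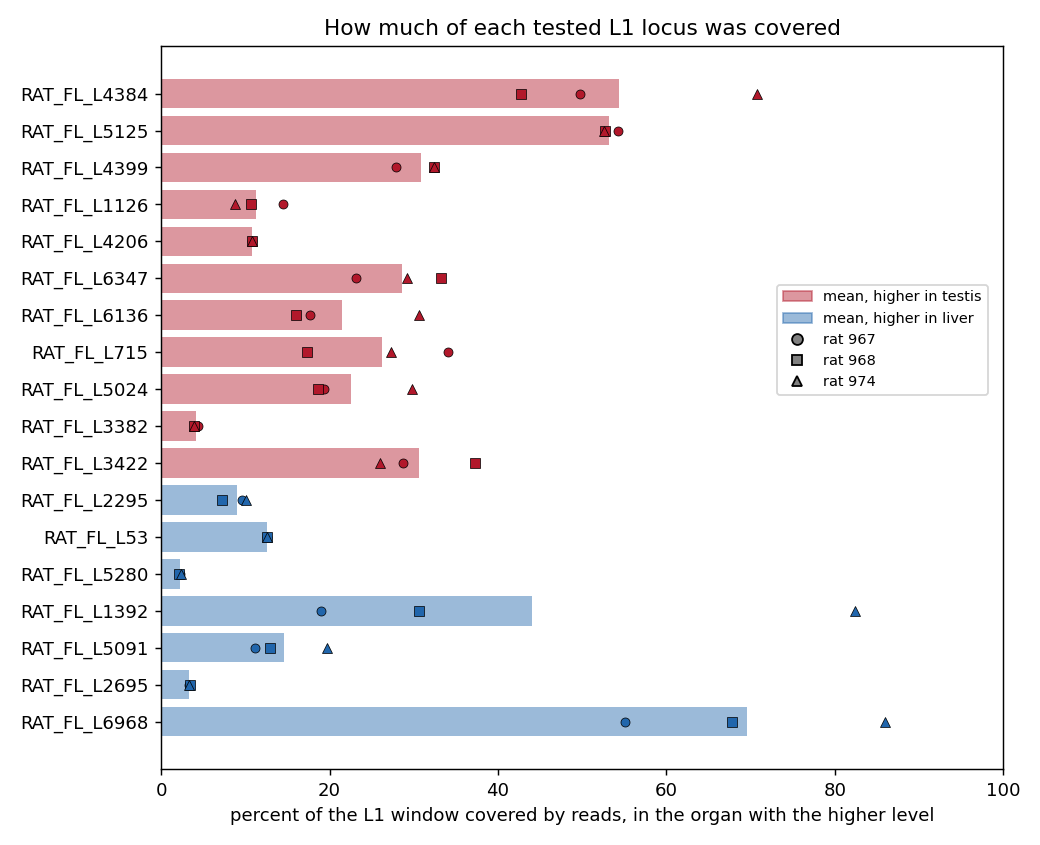
Percent of the counting window covered by reads at each of the 18 tested loci, in the organ with the higher level (bars, mean of 3 libraries; points, each rat). Only RAT_FL_L4384 (54.4%), RAT_FL_L5125 (53.2%) and RAT_FL_L6968 (69.6%) have a mean of at least 50%, and 4 loci lie under 10%.

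The study's curated list names 9 rat loci for testis and 6 for liver, kept after inspection of the alignments. They were chosen on these same libraries, so the direction of their difference is not independent evidence. Most of them were below the level needed for the test. Of the testis list, 3 loci were tested, and 2 (RAT_FL_L1126 and RAT_FL_L6347) were higher in testis and 1 (RAT_FL_L2295) higher in liver. Their median log2 fold change was 7.90, or 3.41 with loci at 0 set to their bound, beside 4.22 and 3.17 over all 18 tested loci. Of the liver list, 1 locus was tested, RAT_FL_L2695, and it was higher in liver.

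FPKM, the RPM of a locus divided by a length of 6 kb, summed over the loci of the organ's own list to 0.999, 0.893 and 0.738 in testes and to 0.228, 0.370 and 0.354 in livers. These are not the study's own totals. RAT_FL_L134, RAT_FL_L472 and RAT_FL_L1535 are summed also in libraries where they had reads but the study gives no FPKM. The means were 0.877 ± 0.131 and 0.317 ± 0.078 (SD, n = 3 each), 2.76-fold more in testes (exact permutation p = 0.1, and p = 0.25 by the exact sign-flip test within rats). Summed over both lists in both organs, it was 0.889 ± 0.132 in testes and 0.527 ± 0.062 in livers, 1.69-fold more in testes. RAT_FL_L2295 gave all of the FPKM that the testis list had in livers, 0.228, 0.204 and 0.197. The listed loci held 1.42%, 1.42% and 1.09% of the L1 reads of the testes and 0.188%, 0.266% and 0.264% of those of the livers.

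The other loci of the testis list were read in few counts. RAT_FL_L134, in a window of 1896 bp (chr9:51096886-51098781, minus strand), had 16, 6 and 22 reads in testes and none elsewhere, at least 5.81-fold above livers. RAT_FL_L6523 (chr16:26046485-26052484, plus strand) had 12, 4 and 2 reads in testes and none in livers, at least 2.52-fold above them, or 1.14-fold without testis 967. Both passed the threshold in the fit without the filter, with an adjusted p of 7.99e-09 and 0.00703 (edgeR), and neither did with the rat as a block (0.378 and 0.947). RAT_FL_L4463 (0, 8 and 4 reads), RAT_FL_L1234 (0, 2 and 6), RAT_FL_L6681 (0, 2 and 6) and RAT_FL_L4544 (4, 2 and 0) had no read in livers, but testis and liver overlapped at 0 reads and none passed the threshold.

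Of the other loci of the liver list, RAT_FL_L472 (chr1:145687842-145693841, plus strand) had 6, 16 and 8 reads in livers and none in any other organ, at least 2.99-fold above testes, or 1.72-fold without liver 968 (adjusted p = 2.18e-04 without the filter, edgeR, and 0.947 with the rat as a block). RAT_FL_L1535 had 10, 2 and 2 reads in livers, RAT_FL_L4860 had 0, 6 and 10, and RAT_FL_L3928 had 4, 0 and 10, all with none in testes. RAT_FL_L2229 had 4, 2 and 10 reads in livers and 2, 0 and 2 in testes. None of these 4 passed the threshold without the filter, with adjusted p from 0.117 to 0.396 (edgeR).

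Beside the tested and listed loci, 3 more were among the 10 highest of the livers. RAT_FL_L7861 (chr6:95469928-95475927, minus strand) had 8, 6 and 57 reads in livers and none in the other 9 libraries. RAT_FL_L2262 (chr1:224513924-224519923, minus strand) had 6, 6 and 31 reads in livers and 2, 0 and 0 in testes. Liver 974 thus held most of the reads of both. Against the floor, RAT_FL_L7861 was at least 5.99-fold above testes, or 2.03-fold without liver 974. RAT_FL_L3083 (chr5:52687412-52693411, plus strand) had 19, 9 and 14 reads in livers and none in testes, at least 3.76-fold above them. All 3 passed the threshold without the filter, with adjusted p of 6.81e-11 (RAT_FL_L7861), 9.61e-04 (RAT_FL_L2262) and 6.14e-06 (RAT_FL_L3083), and none did with the rat as a block (0.361, 0.947 and 0.930 by edgeR).

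**Figure D5:**
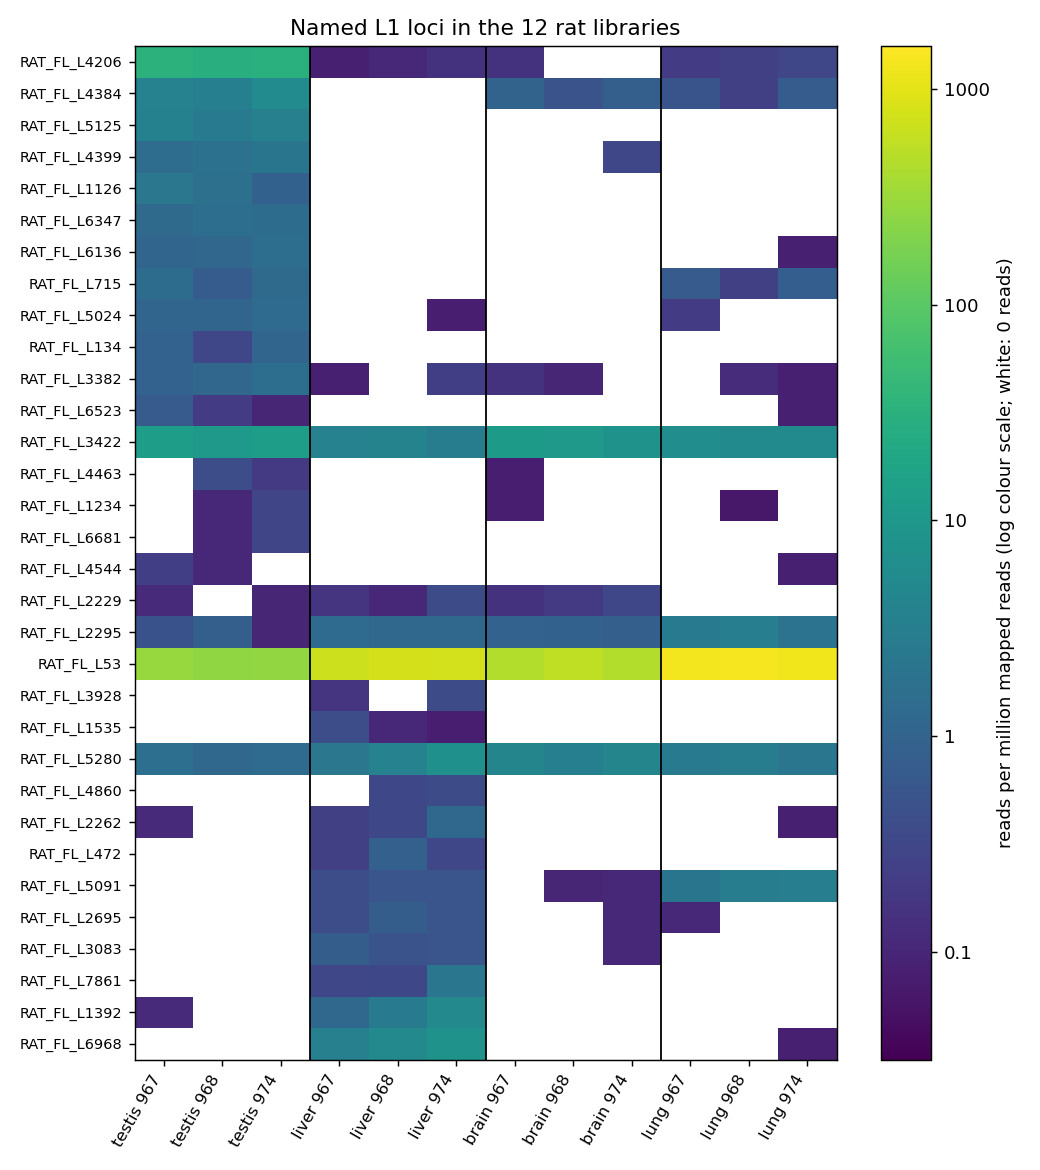
Reads per M mapped reads (log colour scale, white for 0 reads) of the 32 named L1 loci in the 12 rat libraries, ordered from higher in testis to higher in liver. RAT_FL_L53, RAT_FL_L3422, RAT_FL_L2295 and RAT_FL_L5280 have reads in every library, while RAT_FL_L5125, RAT_FL_L1126, RAT_FL_L6347, RAT_FL_L134 and RAT_FL_L6681 have reads in testes alone.

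By position, the tested loci were spread over the annotation. On the plus strand 11 of 2286 loci were tested, with 8 higher in testis and 3 higher in liver, and on the minus strand 7 of 2277, with 3 and 4. None of the 18 had another annotated window within 10 kb, a feature of 552 loci. A read in at least 1 testis was found on 24.1% of the windows of 6000 bp and on 19.6% of the shorter ones. In livers, these shares were 9.93% and 5.54%. With RAT_FL_L53 left out, the plus strand held 91.9, 80.9 and 95.8 RPM in testes and 12.5, 17.7 and 26.2 RPM in livers. The minus strand held 33.8, 29.8 and 39.4 RPM in testes and 12.6, 20.3 and 34.9 RPM in livers, where liver 974 overlapped the testes.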

How the data were processed

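Cytoplasmic, polyadenylated RNA was sequenced as strand-specific pairs from 3 testes and 3 livers of rats 967, 968 and 974. Per the methods, the authors aligned pairs to rn6 with bowtie (unique placement, up to 3 mismatches, inserts up to 600 bp), removed duplicates, separated strands and counted reads over L1Base windows with bedtools. The read length of these libraries is not given in the sources used here. The deposited values are raw counts of reads per locus, and the authors' fraction of the window covered stands beside each. Mapped reads per library were recovered as the number on which the deposited reads and the study's tabulated FPKM coincide at all listed loci.

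Counts were tested with edgeR 4.0.16 in R 4.3.3 (quasi-likelihood test, mapped reads as library size, Benjamini-Hochberg adjustment), and single values with exact permutation and sign-flip tests, two-sided. Fold changes against an organ with no read use 3 reads per library. DESeq2 1.42.0, TMM, other filters, the rat as a block and leaving out libraries were alternatives. The main edgeR fit alone was also run on simulated reads, with levels raised well above those of the data. That run does not bear on loci of few reads. Same-numbered organs come from the same rat by the labels. Their deviations from the organ means correlated with r = -0.427, -0.026 and 0.081 over 18 loci.

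Named were the loci on the study's 2 lists, the 10 with the largest change each way among called loci without overlap, and the 10 highest of each organ. The members and lists were chosen with earlier results of these data known. Rat genes and sequences were not used here.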

Additional observations from a re-analysis of the deposited data

How the results depend on the processing

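The number of loci that differed was 18 and stayed between 15 and 18 with other library sizes, DESeq2 and reads halved. Without single libraries or rats it was between 17 and 18. These fits kept the 18 loci that had passed the filter on all 6 libraries, and the filter was not applied again. None of the 18 windows overlapped another on the same strand, so leaving out overlapping windows repeated the main fit. With the replicate block the number was 16, as RAT_FL_L2295 and RAT_FL_L5091 were lost. It was 41 without the filter, 51 without it and with the total of L1 reads as library size (43 or 84.3% higher in testis), 11 without it and with the block, 11 with at least 20 reads, 8 without the 10 loci with most reads, and 41 of 42 with at least 4 reads in all libraries of an organ. The median log2 fold change of the 18 moved from 4.22 to 3.50 with TMM, 5.15 with the total of L1 reads, 5.28 with DESeq2 and its default size factors, 4.40 with DESeq2 and mapped reads, 6.05 without liver 974 and 5.86 without rat 974. Of 397 alternative values of the 18 loci, 373 kept their direction and side of the threshold, 24 lost the call and 0 changed sign. Of the 24, 11 were of RAT_FL_L2295. The 373 include the fit without overlapping windows, which could not differ from the main one.

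The log2 difference in total RPM was -0.976 (from -1.07 to -0.889 without single rats, -1.24 for raw totals). For loci covered over 50% or more, which were 1 to 3 per library, it was -0.431. The difference in total RPM reversed to 1.67 without RAT_FL_L53 (1.35 to 1.93 without single rats), 1.23 without the top 3 loci and 1.72 without the top 10. The difference in loci with more than 10 reads (8, and 6.5 to 10 without single rats) was 0 at more than 50 reads, 279 at 1 read and 9.10 after thinning. For listed loci, the restriction to more than 10 reads left liver 967 at 0 FPKM and gave no value. Exclusions of RAT_FL_L53 and of the top 3, the filter of 4 reads and both pairs of choices without the filter were chosen after seeing the data. Depth limits loci of a few reads.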

Other observations

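Below the level of the main test, further loci had reads in all 3 libraries of an organ. With at least 4 reads in each of the 3, a filter chosen after seeing the data that selects on the organ compared, 42 loci were tested and 27 were higher in testis and 14 higher in liver. Counted among them are the 18 loci of the main test, 11 of the 27 and 7 of the 14. Of the 27, 20 had no read in livers, 7 of them from the main test. Of the 14, 9 had none in testes, 3 of them from the main test. No read in brains or lungs was found at 9 of the 27 and 5 of the 14, with 3 and 1 from the main test.

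The following loci were chosen after their values were seen, and each passed the threshold without the filter (edgeR, adjusted p from 2.70e-08 to 0.0179), and none of them did with the rat as a block (adjusted p from 0.596 to 0.947). RAT_FL_L1304 (chr15:95120844-95126522, minus strand) had 7, 6 and 26 reads in testes and none in the other 9 libraries. RAT_FL_L3503 (chr6:41704082-41710081, plus strand) had 10, 9 and 16 reads in testes and 0, 2 and 0 in livers, with none in brains or lungs. RAT_FL_L333 (chr12:10706680-10712679, minus strand) had 4, 4 and 14 reads in livers and none in the other organs. By contrast, RAT_FL_L1019 (chr2:39475954-39481953, plus strand) had 8, 8 and 12 reads in testes and none in livers, but 31, 11 and 44 in brains. RAT_FL_L6045 (chr14:71943402-71949401, plus strand) had 28, 4 and 8 reads in testes, none in livers, and 14, 8 and 24 in brains.

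On the study's lists of the other organs stand RAT_FL_L5024, listed for lung, and RAT_FL_L1020, listed for brain. RAT_FL_L5024 had 4, 0 and 0 reads in lungs beside the 18, 21 and 28 in testes. RAT_FL_L1020 (chr2:18889200-18895199, minus strand) had 10, 8 and 16 reads in livers and 0, 0 and 9 in testes. It also had 10, 4 and 6 reads in brains and 8, 2 and 10 in lungs.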
